A study of Owenia fusiformis with 9 samples.

Results

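Gene expression in the midgut of *Owenia fusiformis*, an annelid that lives in a tube, was set against that in the body wall, with 1 RNA-seq library of each and both labelled as adult female. The comparison was the log2 ratio of the midgut to the body wall value of a transcript, with 10 added to each value, over the 15997 transcripts that reached 50 in either library, of 31911 in all. According to the description of the dissections, the gut, a muscle sample and the ovary were taken from 1 female. The body wall is taken here as that muscle sample because of its label, and the remaining libraries are head and tail from a pool of 5 females, and testis, retractor muscle, blood vessel and head plus chaetae (chaetae are bristles set in the body of the worm) from 1 male. The paper's methods describe a sample of the head with the anterior-most segments, taken here to be the head plus chaetae. Such a sample, like the tail, would include body wall. The animals were untreated adults kept in sea water with mud and fed algae, and no genotype is given. As each tissue has 1 library, no difference between tissues has a replicate check, no test was made, and intervals cover counting error only. In bulk tissue, moreover, fewer cells of a type and less RNA per cell cannot be told apart.

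The midgut is the part of the annelid gut in which food is digested and taken up, and its lining is known for making digestive enzymes and the proteins that carry nutrients across the cell membrane. The body wall consists of a cuticle, an epidermis rich in gland cells and, beneath it, layers of circular and longitudinal muscle, and it continues around the trunk into the tail. The files name transcripts only by the identifiers of the gene models. None of the identifiers was found in the reference gene table of the species (0 matches among 27038 genes), so that no gene name, sequence or place in the genome is given here. For the same reason the tissue labels could not be held against marker genes, and only the pair of transcripts with the largest ratio in either direction is named.

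The deposited value of a transcript is its read count divided by a factor that puts the libraries on a common scale, so that a value can be compared between libraries, while transcript length still affects comparisons between transcripts. The midgut values summed to 12162900 and the body wall values to 10250100. One read was worth about 0.663 in the midgut and 0.595 in the body wall, which puts the libraries at about 18341510 and 17220174 reads. A value of 50 thus stood for 75.4 reads in the midgut and 84.0 in the body wall. It stood for 52.7 to 83.6 reads in the blood vessel, tail, ovary, head plus chaetae and head, but for 18.2 reads of retractor muscle and 9.05 of testis, whose values are also dominated by a few transcripts, so presence in those 2 libraries rests on fewer reads.

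A small majority of transcripts were within 2-fold between midgut and body wall, and the transcripts that differed strongly were about as many on either side. The median log2 ratio was 0.07, the quartiles were -0.83 and 0.98, and 8395 transcripts (52.5%) were within 2-fold. Both libraries held 50 or more of 10105 transcripts (63.2%), the midgut alone of 2937 and the body wall alone of 2955. At 8-fold or more, a log2 ratio of 3, the midgut was higher for 1681 transcripts of 1598 genes (10.5% of those tested), called the midgut end in the following. The body wall was higher by as much for 1580 transcripts of 1518 genes (9.88%), called the body wall end. With the constant of 10 a transcript needs a value of at least 70 to reach either end. The transcripts nearest to the limits had log2 ratios of 3.001 inside and 2.998 outside on the midgut side, and -3.002 inside and -2.999 outside on the body wall side, and 377 and 474 transcripts lay within 0.25 of them. On the scale of counts per 1000000 of each library (CPM) the median became -0.19, and the counts were 1563 and 1755.

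**Figure D1:**
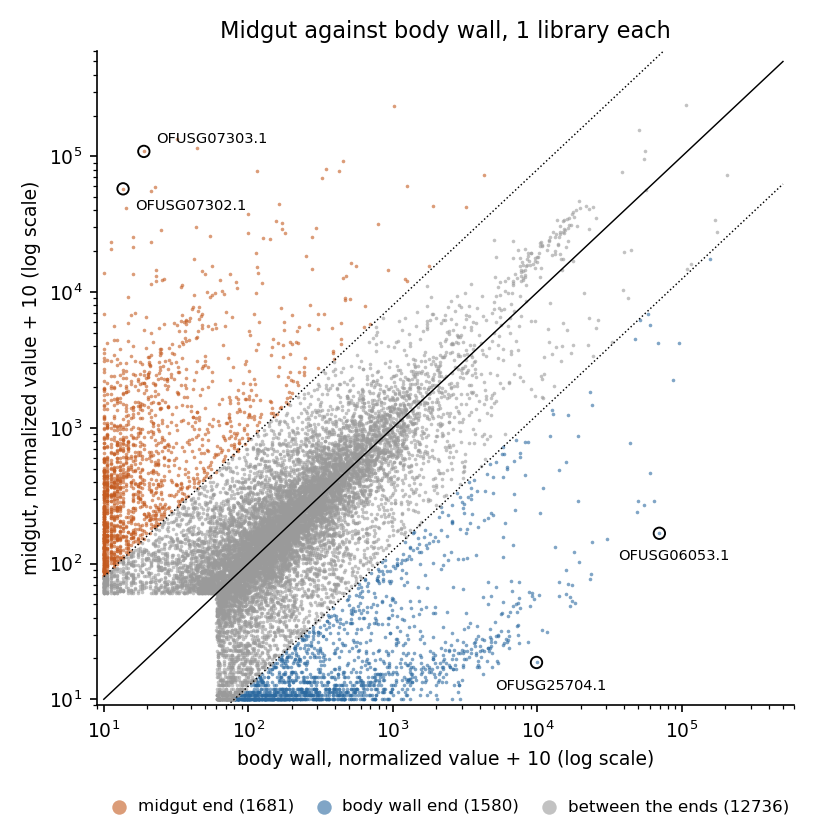
Value of each tested transcript in the midgut (vertical axis) and in the body wall (horizontal axis), both as normalized value + 10 on log axes. The solid line marks equal values and the dotted lines 8-fold differences, beyond which lie the 1681 transcripts of the midgut end and the 1580 of the body wall end, while circles mark the 4 named transcripts.

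The far end of the distribution reached further on the midgut side. The largest log2 ratio was 12.49, against -9.04 for the most negative, and 56 transcripts were higher in the midgut by 8 or more on the log2 scale, against 20 in the body wall. Beyond a log2 size of 5 the counts were 647 and 518. Over the members of each end, the median size of the log2 ratio was 4.53 at the midgut end and 4.21 at the body wall end.

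Many members of both ends were nearly silent in the opposite library. At the midgut end the median value was 457 in the midgut (quartiles 203 and 1380) and 4.76 in the body wall, and 312 transcripts (18.6%) had no read in the body wall. At the body wall end the median value was 3.97 in the midgut and 363 in the body wall (quartiles 163 and 1122), and 343 transcripts (21.7%) had no read in the midgut. A value under the added constant of 10 was found in the opposite library for 1054 members of the midgut end (62.7%) and 1063 of the body wall end (67.3%), so their ratios depend on that constant. Without the constant, the lower exact 95% limit of the ratio of values was above 8 for 1659 of the 1681 transcripts of the midgut end (98.7%) and for 1566 of the 1580 of the body wall end (99.1%). These limits are on a ratio that is larger than the one that set membership, and the members nearest to the limits of 3 and -3 could cross them by counting error. Both ratios came from the same reads, so the high counts follow from the choice of members and are no separate check.

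Transcripts with a high value in the higher library were more often at an end. That value is also part of the ratio, and the constant of 10 limits the ratio most in the low classes. Part of this trend can therefore follow from how the classes and the ratio were made, which was not tested. Among the 781 transcripts with 3000 or more in the higher library, 27% were at the midgut end and 24.6% at the body wall end. Between 300 and 1000 the shares were 13.1% and 10.6% of 4184 transcripts. Between 50 and 100 they were 2.79% and 3.9% of 3514 transcripts, where the constant of 10 and the value of at least 70 needed for a ratio of 3 limit the ratio that can be reached. The quartiles of the log2 ratio were -2.87 and 3.95 above 3000, -1.19 and 2.27 between 1000 and 3000, -0.71 and 1.17 between 300 and 1000, -0.68 and 0.75 between 100 and 300, and -0.98 and 0.63 between 50 and 100, so that the spread was smallest in the class of 100 to 300.

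The 2 transcripts of the largest ratio in the midgut had consecutive gene numbers. OFUSG07303.1 had a value of 108765 in the midgut, from about 164017 reads, and 8.92 in the body wall, from about 15 reads. In the other libraries it had 3416 in the blood vessel, 160 in the testis, 62.3 in the ovary and 27.5 in the retractor muscle, while head (11.4), tail (3.58) and head plus chaetae (1.20) were low. Its midgut value was 12188 times that of the body wall (exact 95% limits of counting 7386 and 21766), and its log2 ratio with the constant was 12.49. The blood vessel was thus the second highest library, far below the midgut, and the tail and head plus chaetae were lower still than the body wall.

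OFUSG07302.1 was likewise highest in the midgut and next highest in the blood vessel, with 57631 in the midgut, from about 86906 reads, and 3.59 in the body wall, from about 6 reads. It had 2024 in the blood vessel, 88.4 in the testis, 65.0 in the ovary, 16.2 in the retractor muscle and less in head (5.37) and tail (1.42), with no read in head plus chaetae. Its value in the midgut was 16073 times that in the body wall (exact 95% limits 7413 and 43972), and its log2 ratio was 12.05. OFUSG07303.1 took 0.894% of the midgut library and OFUSG07302.1 took 0.474%.

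The 2 transcripts of the most negative ratio were carried by other outer body libraries as well. OFUSG25704.1 had 8.67 in the midgut, from about 13 reads, and 9849 in the body wall, from about 16546 reads. Its value was higher in the tail, at 16529, and it had 973 with head plus chaetae, 226 in ovary, 215 in retractor muscle, 204 in head, 94.1 in testis and 5.74 in blood vessel. The body wall value was 1136 times the midgut value (exact 95% limits 668 and 2146), with a log2 ratio of -9.04.

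OFUSG06053.1 had 157 in the midgut and 69788 in the body wall, a ratio of body wall to midgut of 444 (exact 95% limits 391 and 507) and a log2 ratio of -8.71. Its highest value by far was in the tail, at 356653, followed by head (38812), head plus chaetae (11309), retractor muscle (646), testis (205), ovary (102) and blood vessel (18.0). In the tail it was the largest value of any transcript of the body wall end and took 3.03% of the library. The blood vessel, and not the midgut, held the lowest value of both transcripts.

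**Figure D2:**
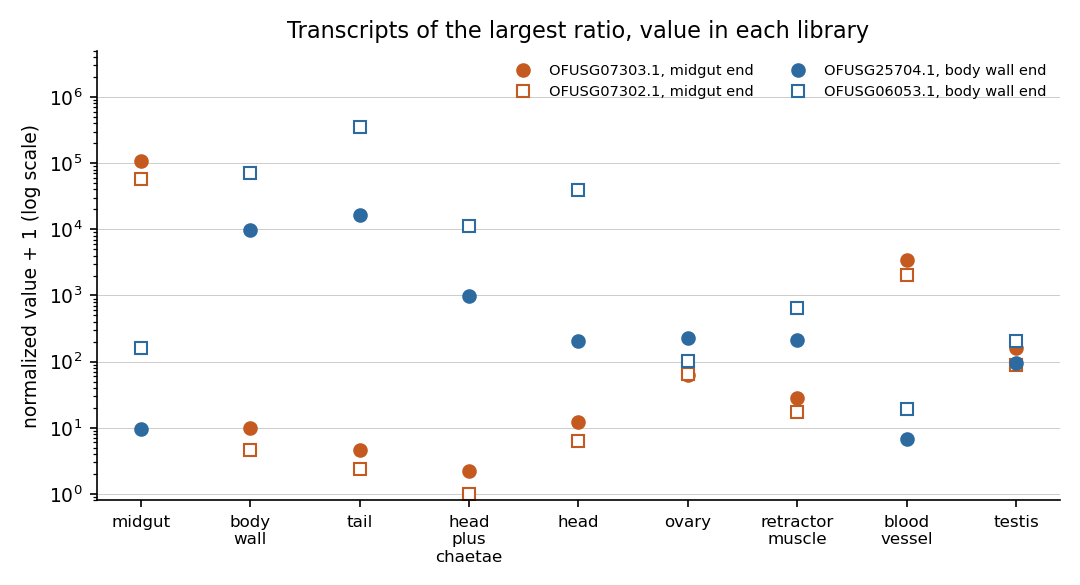
Normalized value + 1 (vertical log axis) of the 4 named transcripts in each of the 9 libraries, 1 library per tissue and therefore without error bars. The transcripts of the midgut end reach 108765 and 57631 in the midgut and 3416 and 2024 in the blood vessel, and those of the body wall end are highest in the tail, at 16529 and 356653.

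The other 7 libraries separated the ends. The midgut end was mostly highest in the midgut, the highest of the 9 libraries for 1481 of its 1681 transcripts (88.1%). The body wall was the highest library for only 497 of the 1580 transcripts of the body wall end (31.5%). Members of each end were chosen for a high value in their own library, so part of these shares follows from the choice. The same shares over all tested transcripts were not computed. The tail was highest for 428 of the transcripts of the body wall end, the head plus chaetae for 317, the head for 144, the ovary for 76, the retractor muscle for 71, the testis for 29 and the blood vessel for 18. At the midgut end the head was highest for 52, the tail for 49, the testis for 44, the retractor muscle for 27, the blood vessel for 15, the head plus chaetae for 10 and the ovary for 3.

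A transcript was called present in a library at a value of 50 or more. Of the midgut end, 641 transcripts (38.1%) were present in none of the other 7 libraries, against 47 (2.97%) of the body wall end and 7.36% of all tested transcripts. Presence in all 7 was found for 58 transcripts (3.45%) of the midgut end, 81 (5.13%) of the body wall end and 38.3% of all tested transcripts. Both ends were thus less often present in all 7 than the tested transcripts as a whole, but the body wall end was also less often present in none. Members were chosen for being low in the opposite library, so part of the lower share in all 7 can follow from the choice. Members of the midgut end were most often present in none or 1 other library, and those of the body wall end most often in 3 or 5.

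**Figure D3:**
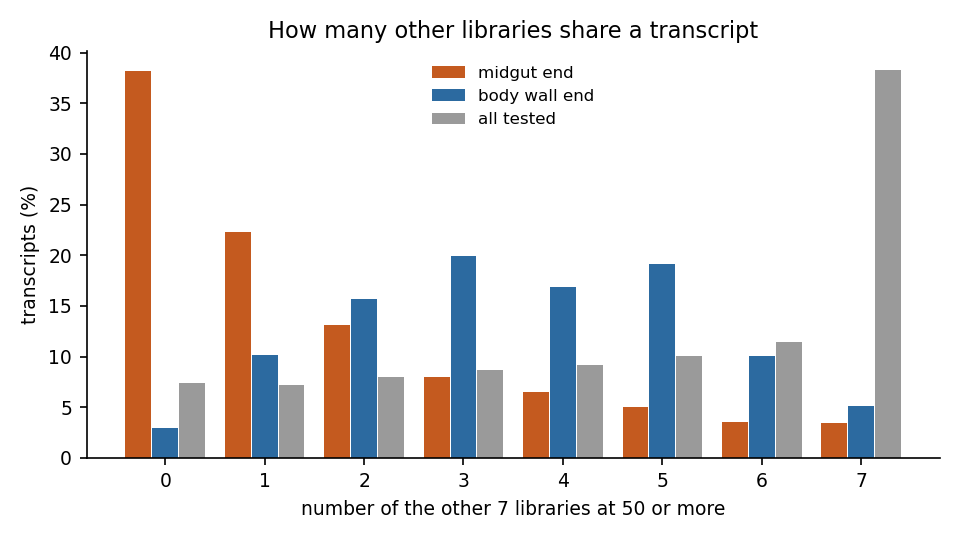
Share of transcripts (vertical axis, percent) by the number of the other 7 libraries in which they had a value of 50 or more (horizontal axis), for the midgut end, the body wall end and all tested transcripts. The midgut end is highest at 0 libraries, with 38.1%, the body wall end at 3 libraries, with 19.9%, and all tested transcripts at 7 libraries, with 38.3%.

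The library that most often held transcripts of either end was the tail, but at very different shares. In the tail, 575 transcripts of the midgut end (34.2%, exact 95% limits 31.9% and 36.5%) and 1323 of the body wall end (83.7%, limits 81.8% and 85.5%) were present, against 77.8% of all tested transcripts. The head plus chaetae held 22.8% of the midgut end and 80.6% of the body wall end, against 74.8% of all tested transcripts. For the head the shares were 26% and 64.4%, against 74.0%. The body wall end was thus above the share of all tested transcripts in the tail and head plus chaetae and below it in the head. The tail, and probably the head plus chaetae, include body wall. How far this sets their shares, and the low number of body wall end transcripts present nowhere else, was not tested. Whether gut tissue came into the tail sample was not tested either. The midgut end was below the share of all tested transcripts in all 7 libraries.

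Among the internal organs, the ovary held the smallest share of the midgut end, 15.6% (262 transcripts), and 51.3% of the body wall end (810 transcripts), against 64.2% of all tested transcripts. The ovary came from the same worm as the midgut and, as taken here, the body wall. The retractor muscle held 26.5% and 46.9%, against 65.2%. In the testis the shares were 17.3% and 22.3%, against 58.0%, and with the library sums made equal (CPM) the testis held 3.77% and 3.36% and the retractor muscle 7.61% and 21.4%, which made the testis the lowest library for either end. The order of ovary and testis at the midgut end was not stable, as the testis was lower also with a constant of 50 (18.9%, against 22.5% in the ovary), with ends at 4 (14.2%, against 15.1%) and with presence at 20 (27%, against 27.6%). The blood vessel was the one library that held more of the midgut end than of the body wall end (with CPM the testis did too), with 443 transcripts (26.4%, exact 95% limits 24.3% and 28.5%) against 185 (11.7%, limits 10.2% and 13.4%), where all tested transcripts had 58.2%. The gap was smaller with presence set at a value within 4-fold of the own library, at 8.09% of the midgut end and 6.27% of the body wall end.

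**Figure D4:**
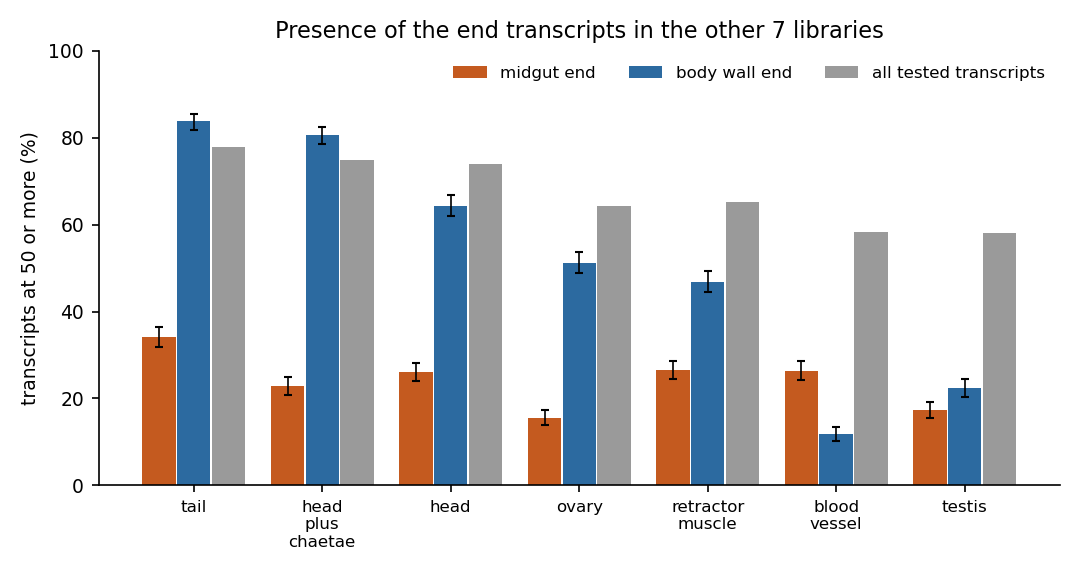
Share of transcripts with a value of 50 or more (vertical axis, percent) in each of the 7 libraries outside the comparison, for the midgut end, the body wall end and all tested transcripts. Error bars are exact 95% binomial limits of counting transcripts and cover no difference between worms. The body wall end stands above the midgut end in 6 libraries, and the blood vessel shows the reverse, with 26.4% and 11.7%.

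For the body wall end the levels followed the same order as presence. The log2 ratio of the tail to the body wall, with 10 added to each, had a median of -0.48 (quartiles -1.65 and 0.74), and that of the head plus chaetae a median of -0.50 (quartiles -2.02 and 0.63). In the tail 615 transcripts (38.9%) were above their body wall value, and 326 of them by 2-fold or more. The medians were -1.98 for the head, -2.67 for the ovary, -3.06 for the retractor muscle, -4.08 for the testis and -4.44 for the blood vessel. For the midgut end, the highest median against the midgut was that of the tail, at -3.66 (quartiles -5.07 and -2.35), and the lowest that of the testis, at -4.67. The blood vessel was second, at -3.98, and 64.1% of the transcripts in the tail, 77.4% in the blood vessel and 85.8% in the ovary were 8-fold or more below their midgut value.

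The libraries were also taken in combination. The most frequent pattern of the body wall end, with 201 transcripts (12.7%, against 2.89% of all tested transcripts), was presence in the tail, head plus chaetae, head, ovary and retractor muscle, followed by the tail, head plus chaetae and head alone, with 190 (against 3.59% of all tested). Of the 1580 transcripts, 1506 (95.3%) were present in at least 1 of these outer libraries, against 87.4% of all tested transcripts, and 487 (30.8%) were present there and in none of the 4 internal organs, against 11.2%. All 3 outer libraries together, however, held 870 transcripts (55.1%), against 62.8% of all tested transcripts. Only 27 transcripts (1.71%, against 5.22%) were present in an internal organ and in none of the 3 outer libraries.

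At the midgut end, the most frequent patterns after presence in none were the tail alone, with 114 transcripts (6.78%), and the blood vessel alone, with 112 (6.66%). The tail alone held a similar share of the body wall end, 92 transcripts (5.82%), against 2.16% of all tested transcripts. The blood vessel alone held 0 transcripts of the body wall end, against 1.05% of all tested. The head plus chaetae alone held 14 transcripts (0.833%) of the midgut end and 43 (2.72%) of the body wall end, against 1.21% of all tested. The retractor muscle alone held 52 (3.09%) of the midgut end and 9 (0.570%) of the body wall end, against 0.681% of all tested. For the head the counts were 48 (2.86%) and 7 (0.443%), against 0.938%. The testis had 22 (1.31%) and 1 (0.0633%), against 0.463%. In the ovary, with 13 (0.773%) and 9 (0.570%), the shares were near the 0.650% of all tested. Presence in an internal organ and in no outer library was found for 296 transcripts (17.6%) of the midgut end, against 5.22% of all tested. Among them, 98 (5.83% of the end) were present only in the retractor muscle, the testis or both, against 1.47% of all tested. Presence in those libraries rests on fewer reads. On the CPM scale the share of the midgut end fell from 26.5% to 7.61% in the retractor muscle and from 17.3% to 3.77% in the testis. The 296 were not recounted on that scale. Presence in an outer library and in no internal organ was found for 279 transcripts (16.6%) of the midgut end, against 11.2% of all tested.

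The 641 transcripts of the midgut end present in none of the other libraries had a median of 256 in the midgut, and values between 70.2 and 32498. Of these, 100 had 1000 or more. In 185 the highest of the other 7 libraries was under 10, and in 24 none of them had a read. Together the 641 took 4.57% of the midgut library. The 47 transcripts of the body wall end present nowhere else had a median of 118, and 1 of them was above 1000. They took 0.107% of the body wall library.

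Transcripts of both ends made up a large part of their own libraries. The midgut end took 33.8% of the midgut sum and 0.586% of the body wall sum, and the body wall end took 0.851% of the midgut sum and 29.7% of the body wall sum. Members were chosen by their values in midgut and body wall, so the gap between those libraries follows from the choice. The midgut end took 3.08% of the head, 2.96% of the tail, 1.33% of the head plus chaetae, 1.02% of the blood vessel, 0.599% of the ovary, 0.419% of the retractor muscle and 0.228% of the testis. It was thus a minor part of every library but the midgut.

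The body wall end instead took 32.9% of the tail, more than of the body wall itself, 19.5% of the head plus chaetae, 18.2% of the ovary and 13.1% of the head. It took 1.28% of the retractor muscle, 0.524% of the blood vessel and 0.142% of the testis. The share in the ovary rested on few transcripts, since the 10 largest made up 50.1% of it, and it was 2.81% when the end was set at a log2 size of 4. In the tail the 10 largest made up 28.2%. The largest member in the ovary had a value of 240987 there, 867 in the midgut and 12275 in the body wall. In the retractor muscle and testis, where a few transcripts dominate the sum, leaving out the 30 most abundant transcripts of each raised the share of the body wall end to 5.50% and 1.10%, and that of the midgut end to 1.80% and 1.77%.

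**Figure D5:**
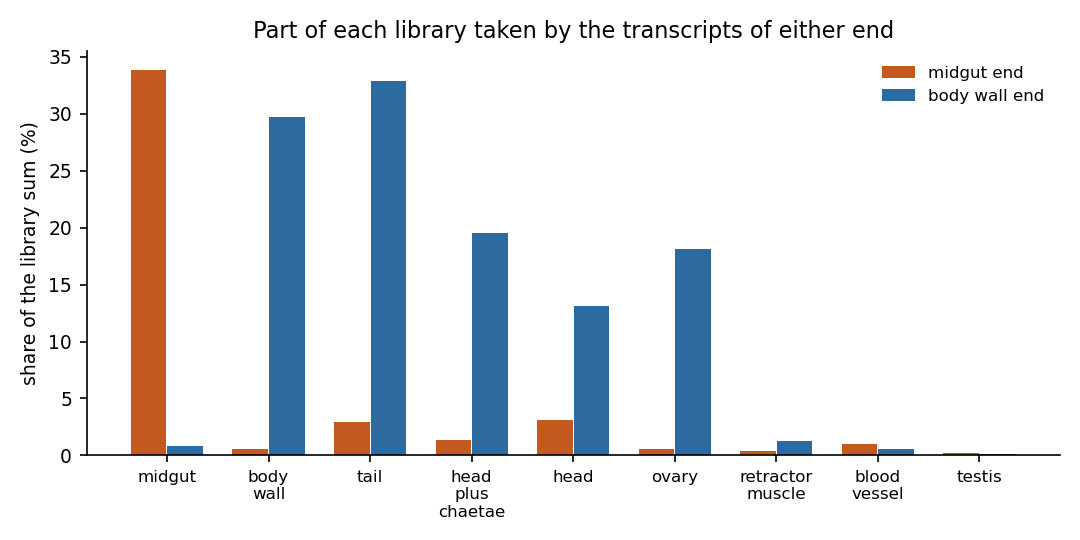
Share of the summed values of each library (vertical axis, percent) taken by the 1681 transcripts of the midgut end and the 1580 of the body wall end. The midgut end takes 33.8% of the midgut and at most 3.08% of any other library, while the body wall end takes 32.9% of the tail and 29.7% of the body wall.

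A few members carried much of each end. The 10 highest took 25.9% of the sum of the midgut end in the midgut, and the 100 highest 65.2%. At the body wall end the shares in the body wall were 25.4% and 63.0%. A value of 10000 or more was reached by 71 transcripts of the midgut end in the midgut and by 47 of the body wall end in the body wall. The most abundant member of the midgut end had 235760 in the midgut and 1010 in the body wall. Without the 10 highest members the ends still took 25.1% of the midgut and 22.2% of the body wall.

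Between the smallest and largest ratios, presence in the tail, head and blood vessel changed in opposite directions at the ends. The share present in no other library was lowest for the largest ratios at both ends. At the midgut end the share present in no other library was 39.6% for log2 ratios of 3 to 4, 40.7% for 5 to 6 and 30.8% for 6 or more. Presence in the head over these classes was 35%, 21.7% and 12.4%, while presence in the blood vessel was 21.8%, 22.0% and 41.8%. For the tail the shares were 37.5%, 35.3% and 27.4%, and for the ovary 16.4%, 10% and 17.3%. At the body wall end, presence in the tail was 75.4%, 89.4% and 96.8% over the same classes, and presence in the ovary 40.7%, 57.6% and 81.2%. Presence in the head was 59.3%, 62.7% and 79.1% there, and in the blood vessel 16.2%, 5.51% and 6.74%. The share of the body wall end in no other library was 5.46%, 1.69% and 0.355%. The median value in the own library differed between these classes too, from 162 to 2508 at the midgut end and from 151 to 2518 at the body wall end, and a transcript of high value passes 50 in another library more easily.

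Among the transcripts with the largest ratio, which are those lowest in the body wall relative to the midgut, the blood vessel was the library most often shared. Of the 50 transcripts with the largest ratio, 38 were present in the blood vessel, where the median over the 50 was 2.98% of the midgut value and the range 0 to 26.2%. In the same 50 transcripts, 25 were present in the retractor muscle (median 0.380%), 24 in the ovary (0.323%), 15 in the testis (0.126%), and of the outer libraries 6 in tail (0.0164%), 4 in head plus chaetae (0.0323%) and 2 in head (0.0349%). Over all tested transcripts the shares in these libraries were 58.0% to 77.8%. The order was another one over the 523 members of 1000 or more in the midgut, of which the blood vessel held 274 (52.4%), the tail 256 (48.9%), the retractor muscle 239 (45.7%), the head plus chaetae 188 (35.9%), the head 182 (34.8%), the ovary 166 (31.7%) and the testis 130 (24.9%). Over these 523 the median was 2.43% in the blood vessel (quartiles 0.270% and 5.78%) and 2.21% in the tail (quartiles 0.101% and 12.1%). Of these, 1 was above its midgut value in the blood vessel and 9 in the tail. Whether midgut tissue came into the blood vessel sample was not tested.

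At the opposite end, the 50 transcripts with the most negative ratio were almost always present in tail (48), head plus chaetae (46), ovary (45) and retractor muscle (44), often in head (39) and testis (34), and rarely in blood vessel (4). Over all tested transcripts the shares were 77.8% in tail, 74.8% in head plus chaetae, 64.2% in ovary and 65.2% in retractor muscle. They were 74.0% in head, 58.0% in testis and 58.2% in blood vessel. Members with a log2 size of 6 or more had a median body wall value of 2518, and a transcript of high value passes 50 elsewhere more easily. Over the 50 transcripts the median was 95.7% of the body wall value for tail, 39.5% for head plus chaetae, 8.09% for ovary and 5.51% for head. It was 4.04% for retractor muscle, 0.936% for testis and 0.0715% for blood vessel. Of the 419 members of 1000 or more in the body wall, 153 (36.5%) were above their body wall value in the tail and 122 (29.1%) in the head plus chaetae. Over the whole body wall end these shares were 38.9% and 37.9%, and over all tested transcripts they were not computed.

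The opposite library was strictly the lowest for a minority of either end. A member with no read in another library cannot meet this, and the testis had no read for 49.0% of the midgut end and 35.1% of the body wall end. These counts therefore cannot show how many members were low in the opposite library alone. The body wall was strictly the lowest of the 9 libraries for 150 members of the midgut end (8.92%), and the midgut for 316 members of the body wall end (20%). Of the 58 members of the midgut end present in all 7 other libraries, 12 were lowest in the body wall and 51 highest in the midgut. Of the 81 members of the body wall end present in all 7, 43 were lowest in the midgut and 29 highest in the body wall.

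The identifiers carry a running gene number, and genes of the same end often had neighbouring numbers. The sources used here do not state that the numbers follow the order of genes in the genome, and the sequences of the genes were not compared. Where the next gene number was among the tested genes, it was at the midgut end for 288 of 947 genes of the midgut end (30.4%), against 10.5% over all tested genes. For the body wall end it was at the same end for 324 of 912 genes (35.5%), against 10.2%. The next number was at the opposite end for 8.45% of the genes of the midgut end and 6.58% of those of the body wall end.

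Runs of 3 or more consecutive numbers held 208 genes of the midgut end (13.0%, in 55 runs) and 263 of the body wall end (17.3%, in 70 runs). All members were highest in the same library in 46 of the 55 runs at the midgut end, 45 of them in the midgut and 1 in the tail. At the body wall end this was so in 22 of the 70 runs, with the tail as the highest library in 12, the body wall in 9 and the head plus chaetae in 1. The runs thus differed between the ends in the way single transcripts did.

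The longest run at the midgut end had 13 gene numbers with 14 transcripts, all of them highest in the midgut and 13 present in no other library. Their values in the midgut were between 143 and 3829, with at most 6.54 in the body wall and 88.9, in the blood vessel, elsewhere. A run of 9 was highest in the midgut throughout, with a sum of 18615, but also had a tail sum of 6082, against 127 in the body wall.

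Both named transcripts of the midgut end belonged to a run of 7 gene numbers, which took 3.79% of the midgut library. Its 7 transcripts had values of 1076 to 133405 in the midgut and at most 34.0 in the body wall, with log2 ratios between 6.68 and 12.49. In the blood vessel 5 of them had 2.17% to 8.95% of their midgut value, and the other 2, at 1076 and 2335 in the midgut, had 0.264% and 1.22%. The run summed to 461199 in the midgut and 76.9 in the body wall, and to 16201 in the blood vessel, to 696 for testis, 484 for ovary, 347 for retractor muscle, 46.6 for head, 31.5 for tail and 9.0 for head plus chaetae. If its genes are close copies of each other, reads could be divided between them by the pseudo-alignment, which was not tested, so that the sum is firmer than the value of each member.

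At the body wall end the longest runs had 8 gene numbers. One of them summed to 31.9 in the midgut and 9725 in the body wall, but to 36179 in the tail and 10048 in the head plus chaetae, and none of its members was highest in the body wall. A run of 5 summed to 54.4 in the midgut and 14571 in the body wall, against 130302 in the tail. In a run of 6, by contrast, all transcripts were highest in the body wall, with a sum of 29.2 in the midgut and 5278 in the body wall, and 1996 in the tail and 959 in the head plus chaetae.

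Some genes placed one isoform at each end. Of 1229 genes with 2 or more tested isoforms, 26 (2.12%) had an isoform at the midgut end and another at the body wall end, while 66 had all tested isoforms at the midgut end and 43 at the body wall end. In the 26 genes the log2 ratios of the isoforms lay between 6.25 and 12.6 apart. With isoforms summed, 16 of the 26 genes were within 2-fold between midgut and body wall, and their log2 ratios were between -2.71 and 3.59. Of their 26 isoforms at the midgut end, 12 were present in the tail, 10 in head and 10 in testis. The head plus chaetae and the retractor muscle held 9 each, and the ovary and blood vessel 7 each. Of the 30 isoforms of these genes at the body wall end, 28 were present in head plus chaetae, 24 in tail and 24 in head. The retractor muscle held 19 of these 30, the ovary 17, the blood vessel 14 and the testis 13. For the tail this was 46.2% and 80%, against 34.2% and 83.7% of the whole ends and 77.8% of all tested transcripts. Reads are divided between isoforms by the pseudo-alignment, so ratios of single isoforms are less certain than those of the summed gene.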

How the data were processed

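RNA was sequenced from 9 adult tissues, 1 library each. After trimming with trimmomatic, the authors assigned reads to gene models by pseudo-alignment in kallisto, and DESeq2 normalized the counts. The submitters' processing notes name kallisto 0.44.0, DESeq2 1.34.0 and R 4.1.2, and the methods name other versions of the first 2 tools. Each deposited value was taken as a normalized signal, that is reads of a transcript over a library's size factor. The route from kallisto estimates into DESeq2 is not stated in the labels or methods, and a factor specific to each transcript is possible.

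Low values lie near whole multiples of 1 read. Among values of up to 20 reads, 99.0% in the midgut and 99.1% in the body wall were within 0.1 read of a whole number (93.1% in the retractor muscle, 96.1% or more elsewhere). Reads recovered from this step gave exact (Clopper-Pearson) 95% limits of ratios. They cover counting error only. With 1 library per tissue a count test has no residual degrees of freedom and was not run.

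Transcripts of 50 or more in midgut or body wall were compared as log2((midgut + 10)/(body wall + 10)), the ends set at 3 and -3, and presence elsewhere at 50. The named transcripts are the 2 of the most positive and the 2 of the most negative ratio. Members, thresholds and lists were chosen with earlier results of these data known. Alternatives were constants of 1 and 50, filters of 20, 100 and none, CPM, centring, summed isoforms, ends at 2 and 4, presence at 20, 100 or within 4-fold, and other libraries left out. A filter of 50 reads and presence at 5 CPM were chosen after seeing the data. The computation was tested on simulated data. Python 3.11.15, numpy 2.4.6, pandas 2.3.3, scipy 1.17.1 and matplotlib 3.10.9 were used.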

Additional observations from a re-analysis of the deposited data

How the results depend on the processing

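The tail was the library with the highest share of either end in every setting in which it was counted. With a constant of 50 the ends held 843 and 690 transcripts, of which 233 and 5 were in no other library and 41.0% and 94.9% in the tail. With 1 the tail shares were 31.5% and 76.8%, and 107 transcripts of the body wall end were in no other library. With ends at 2, 2546 transcripts lay at the body wall end, 114 of them in no other library, and the tail shares were 38.9% and 78.2%. With ends at 4 the ends held 1067 and 884 transcripts, 398 and 9 of them in no other library, and the tail share of the body wall end was 90.3%. On the CPM scale the median log2 ratio was -0.19, a shift of library sums, and the tail share of the midgut end was 31.6%. Presence at 20 left 362 and 13 in no other library, with tail shares of 47.4% and 91.7%. Presence at 100 left 136 of the body wall end, with tail shares of 22.7% and 73.9%. Presence within 4-fold left 996 of the midgut end, with tail shares of 19.9% and 80.1%, and blood vessel shares of 8.09% and 6.27%. Presence at 5 CPM gave tail shares of 31.7% and 81.8%. The tail share of the body wall end was 86.3% under a filter of 100 and 87.0% with isoforms summed. Without the tail among the other libraries 139 transcripts of the body wall end were present in none of the rest, and 90 without the head plus chaetae. A filter of 20 or none left both ends at the same counts, since an end needs a value of 70. The cause of these shifts was not tested beyond the construction of each setting. No paired analysis was possible because each tissue has 1 library. With 1 library per tissue, differences between worms or dissections were not measured.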
